A study of Mus musculus with 6 samples.

Results

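Insulin and glucagon act on hepatocytes in opposite directions, and the 10 genes described here stand along both pathways: Insr, Gcgr, Irs1, Irs2, Akt1, Akt2, Foxo1, Foxo3, Ppargc1a and Igfbp1. They were chosen by symbol for their roles, with earlier results of these data known, and no cut on a measured value defined the set. All 10 were among the 18428 genes with at least 1 count in the livers of 6 male Mettl14f/f mice. Every mouse carried floxed Mettl14 alleles, was placed on a high fat diet (HFD) at 8 weeks of age and received an adeno-associated virus (AAV8) through the tail vein after 10 weeks of HFD. The virus encoded GFP in 3 mice (AAV8-TBG-GFP) and Cre recombinase in 3 mice (AAV8-TBG-Cre), and total liver RNA was sequenced 8 weeks later. The TBG promoter is active in hepatocytes, so other liver cells keep their Mettl14 alleles, and the GFP mice share the floxed alleles, the diet and the vector type. The comparison asks which liver mRNAs differ when Mettl14, a subunit of the enzyme that methylates adenosine in RNA (m6A), is targeted in hepatocytes of obese mice. Whether the mice were fed or fasted when the livers were taken is not given in the sources used here, and the mRNAs of several of these genes are known to follow feeding and fasting.

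Insulin binds its receptor, a tyrosine kinase encoded by Insr, which phosphorylates the adaptors IRS1 and IRS2. The adaptors recruit PI 3-kinase, and the lipid it makes activates the kinases AKT1 and AKT2. AKT phosphorylates the transcription factors FOXO1 and FOXO3 and keeps them out of the nucleus, which silences genes that FoxO proteins activate during fasting, among them Igfbp1 and the glucose-6-phosphatase gene G6pc. Glucagon binds a G protein-coupled receptor encoded by Gcgr, raises cAMP and activates protein kinase A, and CREB then induces Ppargc1a, a coactivator of FOXO1 and HNF4A on genes of hepatic glucose production (HGP).

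The regulatory sequence by which insulin represses Igfbp1 is a textbook case, and the promoter sequences of the RefSeq annotation of GRCm38.p6 show which of the genes share its letters. The table covers 250 bases before and 50 bases after each start site and holds 9 of the 10 genes, all but Insr, with 13 promoters in all. The core of the insulin response sequence, CAAAACAA, searched on both strands, occurred in 2.51% of 32851 promoters and in those of 3 of the genes, Igfbp1, Irs1 and Irs2. Each window is 30 bases, written 5′ to 3′ on the strand of the gene, with the core in capitals (TTGTTTTG where it lies on the opposite strand). In Irs2 the capitals also take in an E-box, CACGTG, which touches the core. The windows lie at chr11:7197673-7197702 on the + strand for Igfbp1, at chr1:82291457-82291486 on the - strand for Irs1 and at chr8:11008952-11008981 on the - strand for Irs2.
Igfbp1: cacaagCAAAACAAacttattttgaacact
Irs1: gccgcagccgccgcTTGTTTTGgttggggc
Irs2: cgcagagtCACGTGTTGTTTTGctcttagt
The first base of the core stood 108 bases before the start site in Igfbp1, 33 in Irs1 and 38 in Irs2. The E-box occurred in 7.15% of all promoters and in those of Irs1 and Irs2. Another FoxO motif, GTAAACA, occurred in 3.65% of promoters and in 1 of Akt1. The full cAMP response element, TGACGTCA, which CREB binds, occurred in 1.79% of promoters and in none of the 13. Its short form, TGACG, occurred in 20.8% of promoters and in 5 of the 13, from Irs1, Ppargc1a, Akt2 (2 promoters) and Foxo3. These matches describe letters in a fixed window and not binding.

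The libraries held 20356418 to 21010493 expected counts each, and expression is given as CPM, the count relative to library size, after TMM scaling, a correction for differences in RNA composition. Mettl14, the targeted gene, had 6.30, 6.43 and 5.81 CPM in GFP mice and 4.96, 5.38 and 4.86 CPM in the mice labelled Cre. By CPM it was lower in all 3 of the latter but did not pass the test (log2 fold change -0.29, SE 0.15, edgeR's quasi-likelihood test with Benjamini-Hochberg adjusted p = 0.336). On the FPKM scale, per kilobase of transcript and without TMM, it stood at 2.31, 2.31 and 2.01 in GFP and 1.92, 2.40 and 1.82 in Cre mice. There the groups overlapped, and Cre replicate 2 was the highest of the 6 livers. The labels were taken as given. The library names have 2 digits in GFP replicates 1 and 2 and Cre replicate 1, and 4 digits in the other 3. What the name form stands for is not given in the sources used here, so differences within each form are given where they diverge. In bulk liver RNA, fewer cells of a type and less RNA per cell cannot be told apart. The 12 hepatocyte markers summed to 127400 to 153100 CPM in GFP and 105400 to 131300 CPM in Cre mice, and 1 rose (Cps1) and 1 fell (Ttr) at the threshold used below. Markers of other cells moved more: 9 of 9 cholangiocyte markers rose (summed 73.21 to 129.7 CPM in GFP and 310.6 to 584.0 in Cre mice), as did 6 of 10 macrophage markers (218.5 to 256.6 and 333.4 to 525.0) and 5 of 10 stellate cell and fibroblast markers (247.7 to 378.2 and 487.3 to 1026). Another macrophage marker fell. At an adjusted p under 0.05 in edgeR, 3 cholangiocyte markers, 1 macrophage marker and 1 neutrophil marker were higher. At that level 1 macrophage marker and 1 adipocyte marker were lower, and no marker of the other cell types passed. At the fold and p threshold, of 8 endothelial markers 1 fell (129.9 to 201.4 and 131.4 to 156.4 CPM). Blood cell and adipocyte markers stayed under 25 CPM in sum: 1 of 2 tested T and NK cell markers, 1 of 1 B cell marker and 3 of 4 neutrophil markers rose, 1 neutrophil marker fell, 1 of 2 adipocyte markers fell, and no islet or muscle marker had enough counts for a test. The part of these cells in the values below was not tested.

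None of the 10 genes passed either threshold. Of 13430 genes tested, 125 (0.931%) had an adjusted p under 0.05 in edgeR's quasi-likelihood test, against 0 of the 10. At the threshold the study used, a fold change of at least 1.2 with an unadjusted p under 0.05, 2748 genes (20.5%) passed, 12% higher and 8.41% lower in Cre mice, again against 0 of the 10. The split over all genes moved with the scaling, from 1618 higher and 1130 lower to 1922 and 738 under upper quartile normalization and to 1880 and 365 with limma on log2(FPKM + 1), and the 10 gave 0 calls under both. No member had an unadjusted p under 0.05, and the smallest was 0.0986, for Gcgr. DESeq2, too, gave 0 members at an unadjusted p under 0.05. Of the 10 fold changes 8 lay below 0 and 2 above it, with a median of -0.07 on the log2 scale, against a median of -0.01 over all genes. The median of the 10 ran from -0.24 without GFP replicate 3 to -0.02 without Cre replicate 3, and was 0.02 with the form of the library names as a covariate and 0.11 with limma on log2(FPKM + 1), where that of all genes was also 0.11. Only 3 of the 10, Irs1, Foxo1 and Gcgr, differed by 1.2-fold or more, compared with 41.4% of all genes. In 27.0% of all genes the CPM values of the groups did not overlap, and this held for 2 of the 10, Akt2 and Gcgr. The plot of fold changes shows that every 95% interval includes 0, and that the intervals are narrow for Akt1 and wide for Irs2 and Igfbp1. With 3 mice per group an exact two-sided permutation test cannot give a p below 0.1.

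**Figure D1:**
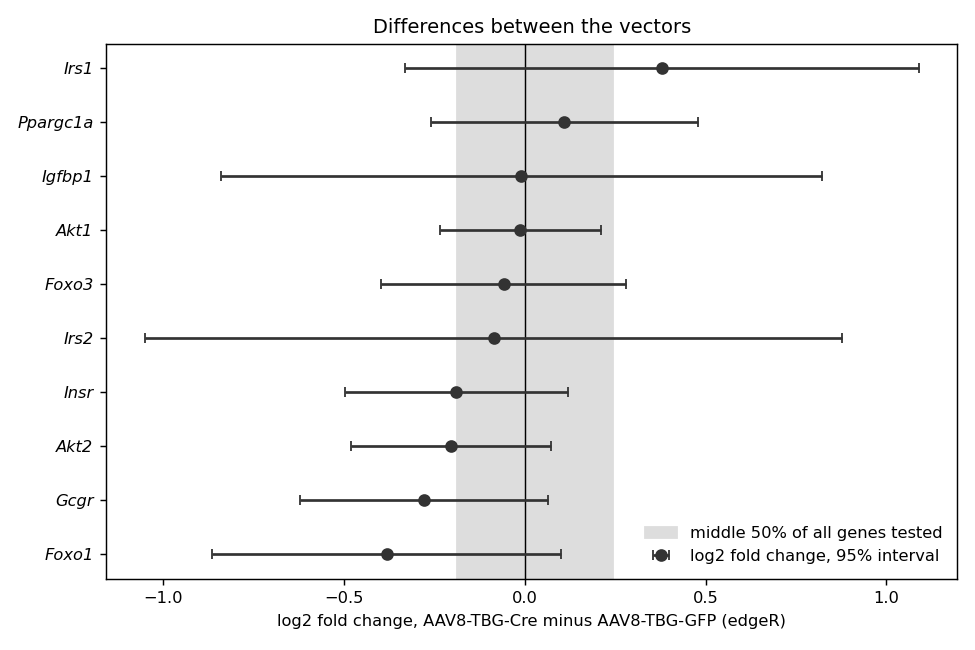
Log2 fold change of each of the 10 genes (x axis, AAV8-TBG-Cre minus AAV8-TBG-GFP, edgeR) with its 95% interval, for 3 livers per group; the grey band spans the middle 50% of all 13430 genes tested, -0.187 to 0.243. All 10 intervals cross 0, and the estimates of Irs1, Gcgr, Akt2, Foxo1 and Insr, the last at -0.189, lie outside the band.

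The receptors were led by Gcgr. Gcgr mRNA stood at 258, 273 and 267 CPM in GFP mice and at 231, 179 and 248 CPM in Cre mice. All 3 Cre livers were below all 3 GFP livers, with Cre replicate 2 lowest. The log2 fold change was -0.28 (SE 0.15, 95% interval -0.62 to 0.07, adjusted p = 0.332 in edgeR's quasi-likelihood test), a mean of 219 ± 36.0 against 266 ± 7.80 CPM (SD, n = 3), and the exact permutation test gave p = 0.1. On the FPKM scale, which the authors set per kilobase of transcript and per library size, with no TMM step, the separation was lost: Cre replicate 3 had 126.95 and GFP replicate 3 had 126.24 FPKM. Leaving out Cre replicate 2 brought the fold change to -0.15, and leaving out Cre replicate 3 brought it to -0.38 (unadjusted p = 0.0495 in edgeR).

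Insr mRNA stood at 131, 150 and 131 CPM in GFP mice and at 138, 106 and 117 CPM in Cre mice. Cre replicate 1 lay within the GFP range and the other Cre livers below it. It differed by -0.19 on the log2 scale (SE 0.13, 95% interval -0.50 to 0.12, adjusted p = 0.466 in edgeR's quasi-likelihood test), so the data allow anything from 29.1% less to 8.57% more Insr mRNA in Cre livers. The ratio of Gcgr to Insr within a liver, on the FPKM scale, was 9.65, 8.98 and 10.1 in GFP and 8.28, 8.28 and 10.4 in Cre mice. This ratio does not depend on how libraries are scaled, and the groups overlapped (difference of log2 ratios -0.10, exact permutation p = 0.4).

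Irs1 and Irs2, the adaptors of the receptor, varied more between the 6 livers than the receptors, kinases and transcription factors, by the ratio of the highest to the lowest level (3.66 for Irs2 and 2.49 for Irs1). Irs1 mRNA stood at 18.3, 16.3 and 22.9 CPM in GFP mice and at 13.8, 26.4 and 34.5 CPM in Cre mice. Cre replicates 2 and 3 were above every GFP liver, and Cre replicate 1 was below every GFP liver. The fold change of 0.38 (SE 0.31, 95% interval -0.33 to 1.09, adjusted p = 0.527 in edgeR's quasi-likelihood test) was the only one of the 10 above 0.2. It rested on which libraries entered: 0.67 without Cre replicate 1 (unadjusted p = 0.00673 and adjusted p = 0.0650 in edgeR), 0.07 without Cre replicate 3 and 0.06 with the name form as a covariate. The log2 ratio of Cre to GFP was -0.32 within the short names and 0.41 within the long names.

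Irs2 mRNA, which is induced by FOXO1 and by cAMP in fasting and repressed by insulin, stood at 12, 18.8 and 5.13 CPM in GFP mice and at 12.6, 12.9 and 8.28 CPM in Cre mice. The Cre livers lay inside the GFP range, and replicate 3 was the lowest of each group. The log2 fold change was -0.09 with an SE of 0.41 (95% interval -1.05 to 0.88, adjusted p = 0.929 in edgeR's quasi-likelihood test), which spans 51.7% less to 83.7% more. The ratio of Irs2 to Irs1 within a liver (FPKM) ran from 0.511 to 2.64 in GFP and from 0.548 to 2.09 in Cre mice. In replicate 3 of both groups Irs1 exceeded Irs2, and in the other 4 livers Irs2 exceeded Irs1. The difference of log2 ratios between groups was -0.22 against SDs of 1.2 and 0.97 (exact permutation p = 0.8). The promoters of both adaptors hold the response core printed above. Irs1 was highest in the long-named Cre livers and Irs2 was not, and the part of the core was not tested.

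**Figure D2:**
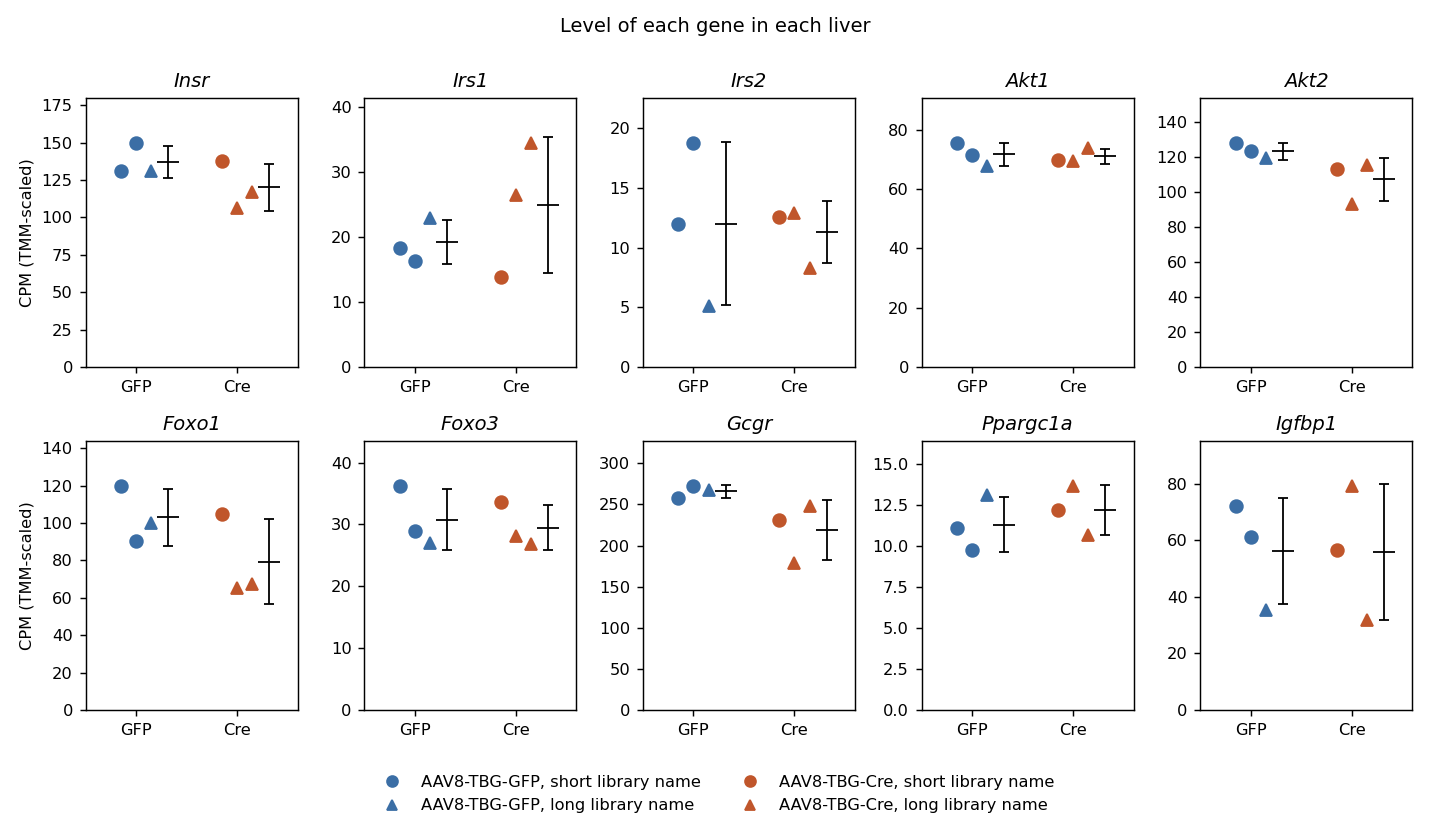
CPM of each of the 10 genes in each of the 6 livers (y axis, linear, separate for each gene). The livers are 3 AAV8-TBG-GFP and 3 AAV8-TBG-Cre, with horizontal bars at group means with SD. Akt1 is level across livers at 67.8 to 75.6 CPM, Gcgr and Akt2 do not overlap between groups on this scale, and Irs2 and Igfbp1 spread by 3.66-fold and 2.51-fold.

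Over the 6 livers, the coefficient of variation of CPM was lowest of the 10 for Akt1 (4.14%), with Akt2 next. Akt1 mRNA stood at 75.6, 71.4 and 67.8 CPM in GFP mice and at 69.9, 69.3 and 73.9 CPM in Cre mice. The lowest and highest of the 6 livers differed by 1.11-fold. The log2 difference was -0.01 (SE 0.10, 95% interval -0.23 to 0.21, adjusted p = 0.961 in edgeR's quasi-likelihood test), which bounds a difference to between 14.9% less and 15.7% more.

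Akt2, the form that carries much of insulin's metabolic action in liver, stood at 128, 123 and 119 CPM in GFP mice and at 113, 93.0 and 115 CPM in Cre mice. The groups did not overlap, by a margin of a few CPM between GFP replicate 3 and Cre replicate 3. The fold change was -0.20 (SE 0.12, 95% interval -0.48 to 0.07, adjusted p = 0.380 in edgeR's quasi-likelihood test, exact permutation p = 0.1). On the FPKM scale Akt2 overlapped, with 40.84, 38.32 and 35.77 in GFP and 38.10, 35.97 and 37.39 in Cre mice. Its ratio to Akt1, which no scaling can move, was 1.52, 1.54 and 1.58 in GFP and 1.46, 1.2 and 1.39 in Cre mice. Every Cre liver had a lower ratio than every GFP liver (difference of log2 ratios -0.20, exact permutation p = 0.1, the smallest this design can give). A ratio shows unequal change of the pair and not which of them changed.

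Foxo1 had the lowest fold change of the 10. Foxo1 mRNA, encoding the FoxO factor best known for driving gluconeogenic genes in liver, stood at 120, 90.3 and 99.8 CPM in GFP mice and at 105, 65.4 and 67.2 CPM in Cre mice. Cre replicates 2 and 3 were below every GFP liver, while Cre replicate 1 was above GFP replicates 2 and 3. The fold change was -0.38 (SE 0.21, 95% interval -0.86 to 0.10, adjusted p = 0.343 in edgeR's quasi-likelihood test, exact permutation p = 0.3), or 79.3 ± 22.6 against 103 ± 15.1 CPM (SD, n = 3). Cre replicate 1 decided the call: without it the fold change was -0.64 with an adjusted p of 0.0471 in edgeR, and over all alternatives the adjusted p ranged from 0.0471 to 0.661. Within the short library names the log2 ratio was 0.00, and within the long names it was -0.59.

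Foxo3, a related factor with many shared targets, stood at 36.3, 28.9 and 27.0 CPM in GFP mice and at 33.7, 28.1 and 26.9 CPM in Cre mice, nearly the same 3 levels in each group. The estimated log2 difference was -0.06 (SE 0.15, 95% interval -0.40 to 0.28, adjusted p = 0.856 in edgeR's quasi-likelihood test). The ratio of Foxo1 to Foxo3 within a liver (FPKM) was 1.71, 1.62 and 1.91 in GFP and 1.62, 1.21 and 1.29 in Cre mice. Cre replicates 2 and 3 had the lowest ratios, and Cre replicate 1 met the bottom of the GFP range (difference of log2 ratios -0.36, exact permutation p = 0.2). Of the 4 ratios, Akt2 to Akt1 alone did not overlap between groups. In CPM 27.0% of single genes did not overlap either, and the share over other pairs of genes was not counted.

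**Figure D3:**
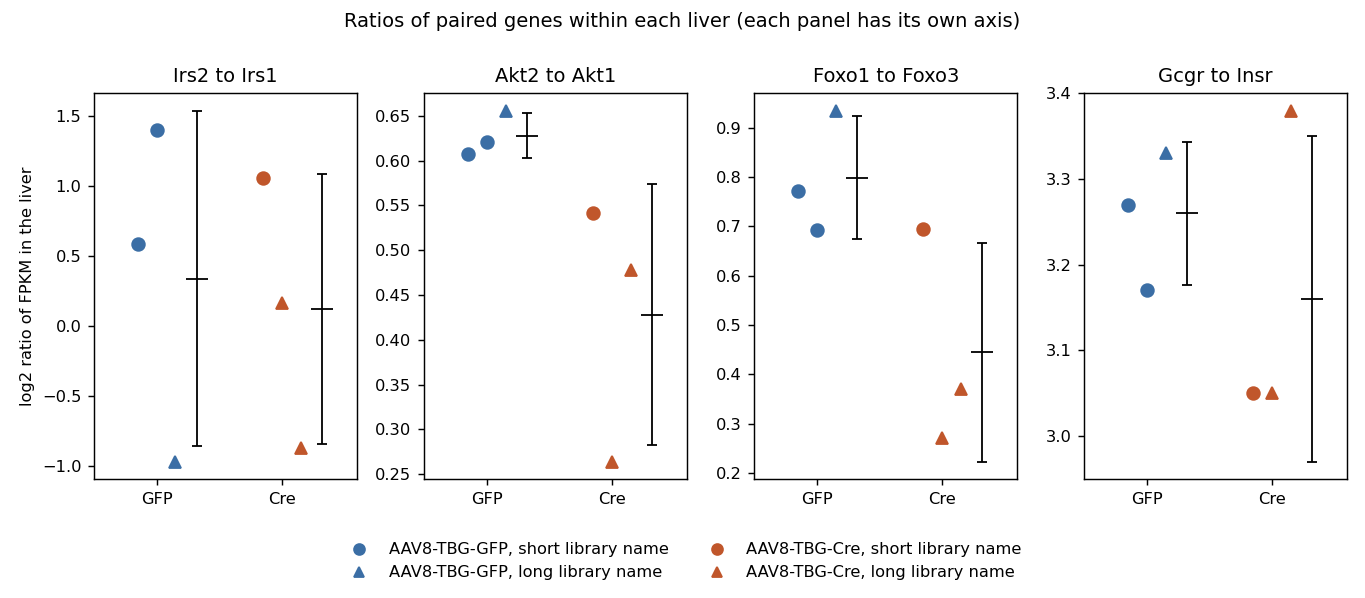
Log2 ratio of FPKM within each liver for 4 pairs of genes (y axis, separate for each pair, 3 AAV8-TBG-GFP and 3 AAV8-TBG-Cre livers, horizontal bars at group means with SD). The Akt2 to Akt1 ratio is lower in all 3 Cre livers, at 0.264 to 0.542 against 0.608 to 0.656, and the Irs2 to Irs1 ratio crosses 0 in both groups.

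At the outputs of the pathways, Ppargc1a mRNA stood at 11.1, 9.74 and 13.1 CPM in GFP mice and at 12.2, 13.7 and 10.7 CPM in Cre mice. The groups overlapped, and the fold change was 0.11 (SE 0.16, 95% interval -0.26 to 0.48, adjusted p = 0.739 in edgeR's quasi-likelihood test). The transcripts to which these fragments were assigned differed. In all 3 GFP livers every fragment of Ppargc1a (218.39, 191.18 and 250.04 expected counts) was assigned to the coding RefSeq transcript. In Cre replicates 1 and 2 the coding transcript took 68.7% and 76.7%, and a non-coding RefSeq transcript took 31.3% and 23.3%. In Cre replicate 3 the same non-coding transcript took 27.2% and another non-coding transcript 72.8%, with no count listed for the coding transcript. These transcripts are of nearly equal length, and the gene had 191 to 334 counts in each liver. Of 2860 genes with several transcripts and at least 100 counts in every liver, 13 (0.455%) had a transcript that took at least 20% in every liver of a group and none in the other group, and Ppargc1a was one of them. The shares are estimates made by the authors' counting. Whether they reflect the RNA or the assignment of fragments among transcripts cannot be told apart from these files, and no test was made of them. Akt2, the other gene of the 10 with more than 1 transcript, showed no such pattern: its minor transcript took 21.9% to 26.5% in GFP and 20.4% to 27.9% in Cre mice.

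Igfbp1, a secreted binding protein of insulin-like growth factors that insulin represses within hours, stood at 72.2, 61.1 and 35.5 CPM in GFP mice and at 56.6, 79.4 and 31.7 CPM in Cre mice. The groups overlapped throughout, with replicate 3 lowest in each. The fold change was -0.01 (SE 0.36, 95% interval -0.84 to 0.82, adjusted p = 0.992 in edgeR's quasi-likelihood test). Within the short names the log2 ratio was -0.24 and within the long names 0.64. Igfbp1 is also a FoxO target with the response core in its promoter. Cre replicate 2 had the lowest Foxo1 and the highest Igfbp1 mRNA of the 6, and over the 6 livers the correlation of their log2 CPM was 0.172. FOXO1 protein and its place in the cell were not measured, and the relation was not tested.

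Per length, Gcgr was by far the most abundant of the 10. In GFP livers it reached 130 ± 4.14 FPKM (SD, n = 3), 3.39-fold above Akt2 at 38.3 ± 2.54. Akt2, Igfbp1 (35.3 ± 12.6) and Akt1 (24.8 ± 2.05) followed, and Igfbp1 overlapped both of its neighbours in this order. Below them, and apart from each other in all GFP livers, came Foxo1 (17.3 ± 2.85), Insr (13.6 ± 1.24) and Foxo3 (9.99 ± 1.86). A wider gap of 3.57-fold separated Foxo3 from Irs2 (2.80 ± 1.62), Irs1 (1.94 ± 0.297) and Ppargc1a (1.62 ± 0.206), whose neighbouring ranges overlapped. The glucagon receptor mRNA was thus present at many times the level of the insulin receptor mRNA, and the coactivator and the adaptors were the scarcest of the set.

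The spread between mice of a group also set the genes apart. In GFP mice the coefficient of variation of CPM was 57.0% for Irs2, higher than in 98.2% of the 12365 genes with a mean of at least 1 CPM, and 33.4% for Igfbp1, higher than in 90.7%. The median gene had 11.1%. Gcgr (2.93%), Akt2 (3.81%) and Akt1 (5.44%) were among the steadier genes. In Cre mice the median gene had 14.2%, Igfbp1 42.7%, Irs1 41.8%, Foxo1 28.5% and Irs2 23.0%, while Akt1 had 3.56%, less than all but 5.39% of genes. By the ratio of the highest to the lowest of the 6 livers, the widest of the 10 were Irs2 (3.66), Igfbp1 (2.51) and Irs1 (2.49). Among the 9 genes with a promoter sequence here, all but Insr, these are the ones with the response core. This was seen after the values were known and was not tested.

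The lists of pathway genes around the 10 gave the following counts at the fold and p threshold. Of all 13430 genes tested, 20.5% passed it, 12% higher and 8.41% lower. The share was 21.1% near the receptor, 28.6% for PI 3-kinase and lipid phosphatases and 15.4% for AKT effectors and brakes. It was 19.0% for FoxO targets, 30.2% for glucagon and cAMP signalling and 12.5% for cAMP response genes. PGC-1 genes had 8.33%, growth factor and binding protein genes 22.2% and clock genes 20.0%. No list was tested against the share of all genes. Near the receptor, 4 of 19 tested genes passed, of which the 3 that rose are described. Grb10, an adaptor that restrains the receptor, rose by 1.07 (adjusted p = 0.120 in edgeR), Socs3, a suppressor of cytokine and insulin signalling, by 1.06 (adjusted p = 0.171), and the adaptor Sh2b2 by 0.91 (adjusted p = 0.0975). Sh2b2 and Grb10 passed under all 16 alternatives and Socs3 under 13.

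Of 14 PI 3-kinase and lipid phosphatase genes, 3 rose and 1 fell. The genes that rose were Pik3cd (0.83, adjusted p = 0.0970 in edgeR) and Pik3cg (1.04, adjusted p = 0.158), catalytic subunits best known from leukocytes, and Pik3c2a (0.37, adjusted p = 0.0880), a class II kinase. Pik3cb, a catalytic subunit of broad expression, fell by 0.53 (adjusted p = 0.114 in edgeR). Pik3c2a and Pik3cd passed under all 16 alternatives, Pik3cb under 13 and Pik3cg under 11 of the 14 in which it was tested. The rise of Pik3cd and Pik3cg stood beside the macrophage markers given above, 6 higher and 1 lower, and the part of those cells was not tested. Of the 26 AKT effectors and brakes, 0 rose and 4 fell: Gsk3a, a kinase that restrains glycogen synthase (0.28 lower, from 83.1 ± 0.596 to 68.4 ± 2.66 CPM), Mtor (0.37 lower), its partner Rptor (0.30 lower) and the phosphatase subunit Ppp2r5b (0.33 lower), with adjusted p of 0.145 to 0.205 in edgeR. This count depended on scaling, with 2 higher and 1 lower under upper quartile normalization and 1 higher and 0 lower on log2(FPKM + 1), where the median of all genes moved to 0.113, though each of the 4 genes stayed below 0. The count was 1 higher and 1 lower without GFP replicate 3, and 0 higher and 2 lower without Cre replicate 2. It was 1 higher and 3 lower without GFP replicate 1, and 2 higher and 3 lower without Cre replicate 1 or Cre replicate 3. Of the 16 alternatives Gsk3a passed under 11, Mtor and Rptor under 10 and Ppp2r5b under 7.

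Of the 6 tested FoxO family members and partners none passed (1 without Cre replicate 1). Of 21 FoxO target genes, 0 rose and 4 fell: Mttp, which loads triglyceride onto apolipoprotein B (0.41 lower, adjusted p = 0.161 in edgeR), Sod2, the mitochondrial superoxide dismutase (0.37 lower, adjusted p = 0.206), and G6pc and Txnip, named here after their values were seen because their groups overlapped. G6pc stood at 320, 340 and 171 CPM in GFP mice and at 190, 48.2 and 27.0 CPM in Cre mice. Its log2 fold change was -1.65 and that of Txnip was -0.91, and no FoxO target had an adjusted p under 0.05 in edgeR. Over the 16 alternatives (edgeR, DESeq2 or limma) the adjusted p of G6pc ran from 0.0229 to 0.494, under 0.05 in 1. Of the 16 alternatives Mttp passed under 12, G6pc under 10, Sod2 under 8 and Txnip under 4. The count was 1 without GFP replicate 1, 0 without GFP replicate 2 and 2 without Cre replicate 2 or 3, and on log2(FPKM + 1) 2 targets were higher and 1 lower. Members of the 10 that are FoxO targets (Insr, Irs2, Igfbp1 and Ppargc1a) were not among those called. The 10 genes that insulin induces for glycolysis and fat synthesis had a median of -0.37, and 0 passed. This became 1 higher and 4 lower without Cre replicate 1, and 1 lower without GFP replicate 3 or with the name form as a covariate. The median moved to -0.08 without GFP replicate 1, -0.19 without Cre replicate 2 or Cre replicate 3, -0.66 without GFP replicate 3, -0.76 without Cre replicate 1 and -0.12 with the name form.

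Glucagon and cAMP signalling had 43 tested genes, of which 8 rose and 5 fell. The genes that rose included the adenylyl cyclases Adcy7 (1.2, adjusted p = 0.120 in edgeR) and Adcy1 (1.96, adjusted p = 0.202), the receptor-desensitizing Arrb2 (0.52, adjusted p = 0.138) and the cAMP phosphodiesterase Pde4a (0.59, adjusted p = 0.196). Those that fell included the phosphodiesterase Pde8a (0.33 lower, adjusted p = 0.138 in edgeR), the phospholipase Plcb1 (0.51 lower, adjusted p = 0.149), the anchoring protein Akap1 (0.35 lower, adjusted p = 0.173) and Prkacb, a catalytic subunit of protein kinase A (0.29 lower, adjusted p = 0.191). The total of 13 fell to 5 without GFP replicate 2 or without Cre replicate 2, and to 8 without Cre replicate 3 or with the name form as a covariate. On log2(FPKM + 1), 5 were higher and 0 lower. Adcy1 had 7, 2 and 0 counts in GFP and 10, 18 and 13 counts in Cre mice. Its estimate ran from 0.06 to 3.43 over the 13 alternatives in which it was tested, and it lost its call without GFP replicate 2 or 3 and without Cre replicate 2 or 3. Adcy7 and Arrb2 passed under all 16 alternatives, Pde8a under 13, Pde4a under 12, Plcb1 under 11, Akap1 under 10 and Prkacb under 6.

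Downstream of cAMP, 2 of 16 response genes passed, both lower: G6pc and Dusp1, an early-response phosphatase (0.92 lower, adjusted p = 0.145 in edgeR). The count was 0 without GFP replicate 2 and 1 without GFP replicate 1, Cre replicate 2 or Cre replicate 3. Of 12 PGC-1 family genes and partners, 1 fell, Ppara, the nuclear receptor of fatty acid oxidation, from 598 ± 22.4 to 418 ± 40.8 CPM (0.52 lower, adjusted p = 0.0969 in edgeR), and there were 2 without Cre replicate 1 or without Cre replicate 3. Of 9 insulin-like growth factor and binding protein genes, 2 rose (without Cre replicate 1, 3 rose and 1 fell). Igfbp6 had 6 counts in all in GFP and 63 in Cre mice, a ratio of 9.26 with an exact counting interval of 4.03 to 26.2 (adjusted p = 0.0460 in edgeR). This interval pools the mice of a group and leaves out the variation between them. Igfbp6 passed under all 13 alternatives in which it was tested, with estimates of 0.712 to 3.52 and an adjusted p under 0.05 in 4. Igfbp7 rose by 0.81 (adjusted p = 0.177 in edgeR). Of 15 circadian clock genes, whose levels follow the hour of harvest, 3 fell: Nfil3 (0.84 lower, adjusted p = 0.158 in edgeR), Hlf (0.45 lower, adjusted p = 0.159) and Cry1, whose groups overlapped and which was named after its values were seen (1.01 lower, adjusted p = 0.159). There was 1 without GFP replicate 2 or Cre replicate 3, and with the name form as a covariate 2 rose and 3 fell. Of the genes named here, Ppara passed under all 16 alternatives, Hlf under 15, Dusp1 and Igfbp7 under 14, and Nfil3 and Cry1 under 10. The plot of the lists shows these genes around medians that lay between -0.373 and 0.143.

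**Figure D4:**
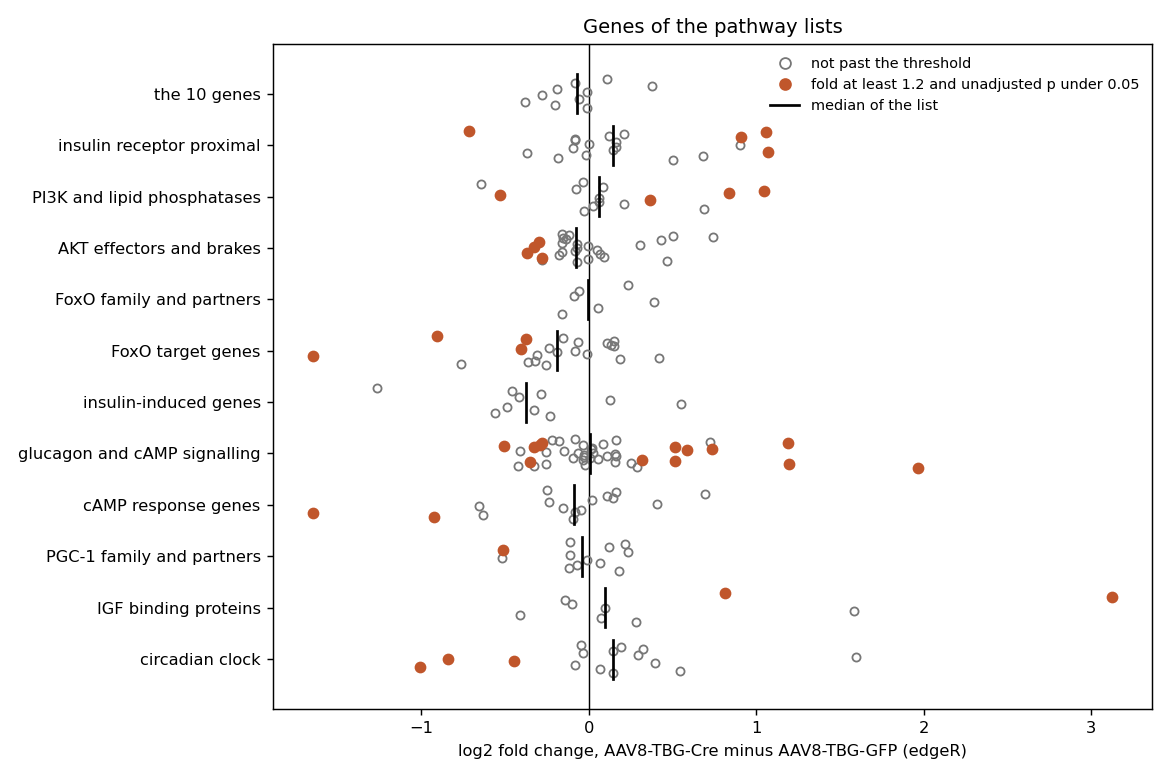
Log2 fold change (x axis, AAV8-TBG-Cre minus AAV8-TBG-GFP, edgeR, 3 livers per group) of every tested gene in the 10 genes and in 11 pathway lists; filled points passed a fold of 1.2 with an unadjusted p under 0.05, and vertical bars are list medians. None of the 10 genes is filled, while most lists hold a few filled genes, from -1.65 for G6pc to 3.13 for Igfbp6.

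The level of a gene across the 6 livers was compared with that of 12364 others, for the 3 of the 10 with the smallest p. The genes most like Gcgr were Taf5 (r = 0.9941 of log2 CPM) and Tmem30a (0.9931), those most like Foxo1 were Acot13 (0.9941) and Rnd2 (0.9858), and those most like Akt2 were Edf1 (0.9978) and Larp1b (0.9949). With 6 points that share library and scaling, 44 to 130 genes exceeded 0.95 for each, so these names describe the libraries only.

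The letters GGACT, the most frequent form of the motif that the METTL14 complex methylates, were counted in the longest coding transcript of each gene (GENCODE vM1 on NCBIM37). Over 21371 genes the median was 1.04 per kilobase, and over the 10 it was 1.31. Akt1 (2.23, from 6 matches), Foxo1 (1.98, from 11) and Irs2 (1.74, from 7) had the highest density, and Ppargc1a (0.774) and Foxo3 (0.730) the lowest. Akt1, with the highest density, had the fold change nearest to 0 but for Igfbp1, and Foxo1, with the next, had the lowest. Motif matches do not show where m6A lies, which these libraries did not measure.

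The estimates for the 10 genes under each alternative processing are drawn together. Insr, Akt2, Foxo1 and Gcgr stayed below 0 and Irs1 and Ppargc1a above 0 under all 16, while Irs2, Akt1, Foxo3 and Igfbp1 took both signs.

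**Figure D5:**
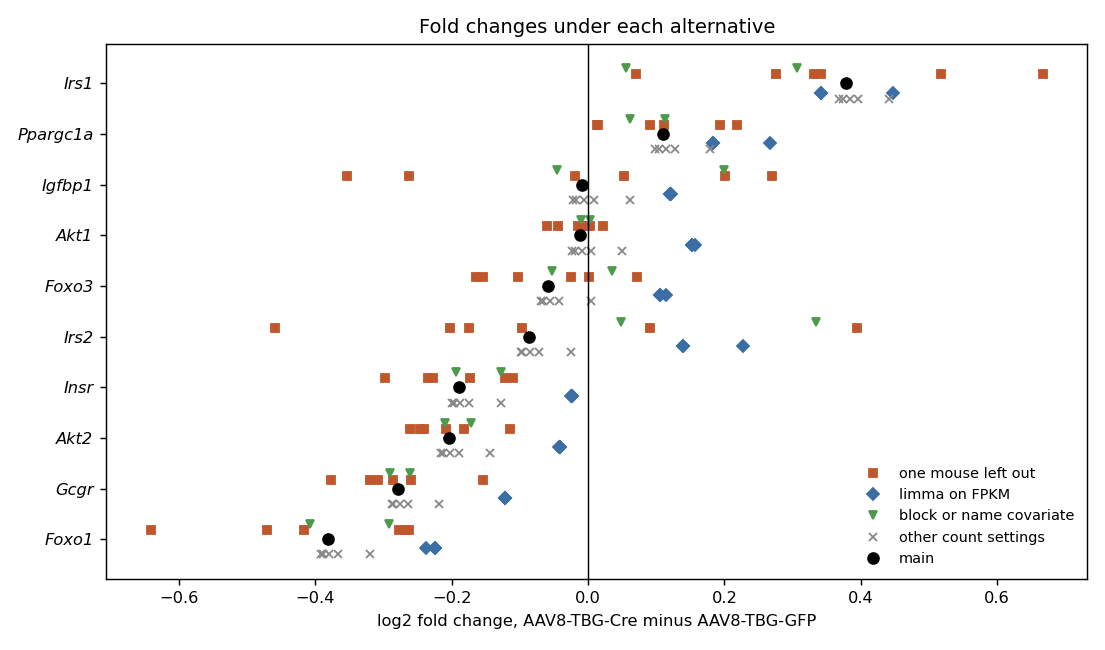
Log2 fold change of each of the 10 genes (x axis, AAV8-TBG-Cre minus AAV8-TBG-GFP) in the main edgeR fit and under 16 alternatives, including each of 6 livers left out. Foxo1 ranges from -0.641 to -0.224 and Irs1 from 0.0561 to 0.667, while Irs2 runs from -0.459 to 0.395 on both sides of 0.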

How the data were processed

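RNA of 6 livers was sequenced (3 AAV8-TBG-GFP and 3 AAV8-TBG-Cre mice, separate animals, grouped by the vector in the labels). For every transcript the authors deposited its expected count (a statistical estimate, often not a whole number) and FPKM per transcript and per gene, scaled by length and mapped fragments. The submitters' processing notes name HISAT2, Bowtie2, RSEM and mm10, whereas the study's methods name STAR, HTSeq and DESeq2; versions are not given in the sources used here.

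Expected counts were summed per NCBI gene ID and rounded (20356418 to 21010493 per library). In each library 1 row named no gene (at most 0.000338% of counts) and was left out. No pair of libraries of a group agreed within sampling noise (chi-square per gene at least 24.9). Genes were tested by quasi-likelihood in edgeR 4.0.16 (R 4.3.3), using TMM, filterByExpr and no factor but the vector, and p was adjusted by Benjamini-Hochberg over 13430 genes. Ratios within a liver were compared by an exact two-sided permutation test. DESeq2 1.42.0 and limma 3.58.1 on log2(FPKM + 1) or log2(FPKM + 0.1) (genes reaching 0.5 FPKM in 3 libraries) were alternatives, beside other normalizations and filters, a block for the replicate number, a covariate for the name form, a fold of 1.5 and leaving out each liver. The steps were tested on simulated counts. The precision of CPM falls with the count, and the 10 genes had 98 to 5352 counts per library.

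The 10 genes and the gene lists were chosen with earlier results of these data known. From each pathway list the text names genes past the fold and p threshold whose groups did not overlap, at most 4 in each direction by p, and for likeness the 2 most correlated genes of the 3 members with the smallest p. Counts of the lists without each liver or with the name form as a covariate were chosen after seeing the data. Promoters are those of RefSeq on GRCm38.p6. A gene that this rule names in the list near the insulin receptor is not reported here.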

Additional observations from a re-analysis of the deposited data

How the results depend on the processing

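Of 13430 genes, 125 had an adjusted p under 0.05 in edgeR's quasi-likelihood test. The number was 1164 with DESeq2, 66 with upper quartile normalization, 374 without a filter, 76 with at least 10 counts in every library, 214 with the library name form as a covariate, and 22, 27 and 9 with limma on log2(FPKM + 1), log2(FPKM + 0.1) and without a filter. Leaving out a liver gave 0 (without GFP replicate 2 or Cre replicate 2, where 2079 and 1899 passed the fold threshold) to 928 (without Cre replicate 1). The fold threshold gave 2748 genes, 1699 at a fold of 1.5 and 1899 to 3730 without a liver. Of the calls, 58.9% were higher, against 72.3% with upper quartile normalization and 83.7% to 84.7% with limma, where the median of all genes moved to between 0.0656 and 0.138.

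Members passing the fold threshold numbered 0 to 2 without a liver: Irs1 and Foxo1 without Cre replicate 1, and Gcgr without Cre replicate 3. Foxo1 ranged from -0.641 (adjusted p = 0.0471 in edgeR) to -0.263. Fold changes near 0 changed sign. With upper quartile normalization Akt1 was 0.0499, Foxo3 0.00409 and Igfbp1 0.0612. With at least 10 counts Akt1 was 0.00387 and Igfbp1 0.00883. With the name form Irs2 was 0.335, Akt1 0.00283, Foxo3 0.0356 and Igfbp1 0.2. On log2(FPKM + 1), with or without the filter, Irs2 was 0.139, Akt1 0.152, Foxo3 0.105 and Igfbp1 0.120. On log2(FPKM + 0.1) they were 0.227, 0.157, 0.115 and 0.122. Without a liver Irs2 ran from -0.459 to 0.395, Akt1 from -0.0604 to 0.0215, Foxo3 from -0.164 to 0.0713, Igfbp1 from -0.354 to 0.270 and the Irs2 to Irs1 difference from -0.874 to 0.311. The cause was not tested.

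The labels do not say that replicate numbers pair the mice. Correlations of deviations were 0.00926, -0.263 and 0.209 for numbers 1, 2 and 3, and ran from -0.277 to 0.309 between unlike numbers. With 3 libraries per group these values cannot decide whether the numbers pair the mice. With the replicate block 7 genes had an adjusted p under 0.05, Irs2 was 0.0485, and 1 member passed the fold threshold, Foxo1 (-0.41, unadjusted p = 0.0174 and adjusted p = 0.174 in edgeR). Ppargc1a, Irs2 and Irs1 had the lowest counts of the set. The SE of the main fit did not follow the counts alone: it was 0.16 for Ppargc1a, 0.15 for Gcgr and 0.36 for Igfbp1.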
